A study of Homo sapiens with 27 samples.

Results

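The response of ribosome footprints to dexamethasone was described in 10 of the 27 libraries of the series: the 5 footprint libraries of cells given LPS and the 5 of cells given LPS with dexamethasone. All genes of the deposited footprint table entered, and 12197 of 20453 passed a filter on low counts and were tested. The cells were THP-1, a human monocytic leukaemia line, which PMA, a phorbol ester given at 10 ng/ml for 24 h, had turned towards macrophages. They then received 100 ng/ml lipopolysaccharide (LPS, a component of bacterial outer membranes that Toll-like receptor 4 senses), or the same LPS with 1 µM dexamethasone (LPS+Dex), for 3 h. Another 5 footprint libraries came from vehicle-treated cells (ethanol/PBS), which had also received PMA. No group had dexamethasone alone, so every value below is an effect of dexamethasone in the presence of LPS. The labels do not give the order in which the agents were added. Nor do they say whether replicates came from separate cultures; if they did not, each p-value reflects technical spread alone. The line is a single leukaemic clone and stands only in part for a blood macrophage.

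Ribosome profiling digests the mRNA that ribosomes do not cover and sequences the fragments they protect, so a gene's footprint count follows both the amount of its mRNA and how densely ribosomes occupy it. The fragments here came from cells lysed with cycloheximide, which holds ribosomes on the message. Dexamethasone binds the glucocorticoid receptor, a nuclear receptor that enters the nucleus, binds DNA at glucocorticoid response elements and raises genes such as FKBP5 and TSC22D3. The same receptor also restrains NF-kB and AP-1, the factors by which Toll-like receptor 4 switches on cytokine genes in macrophages.

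The 10 libraries held 11477048 (LPS+Dex library 3) to 26063343 counts (LPS library 5), and 13805 to 14701 genes had at least 1 count. Macrophage genes ranged widely in level. CSF1R, the receptor for the macrophage growth factor M-CSF, stood at a mean of 2002 CPM (the usual depth-scaled count, with TMM-scaled library sizes) with LPS and 2254 with LPS+Dex. CD68, a lysosomal macrophage protein, stood at 729 and 707. Other macrophage markers were low over the 10 libraries, with CD14 at 10.7 to 17.7 CPM, FCGR1A at 2.67 to 7.18, AIF1 at 8.15 to 21.6 and FCGR2A at 13.9 to 60.9. None of 16 monocyte and macrophage markers passed edgeR's test between the 2 groups (4 had an unadjusted p under 0.05, and DESeq2 called 1). When the replicate number entered the fit as a block, 5 were higher, beside 16.1% of all tested genes. Markers of other lineages were mixed. Of the T and NK cell markers, CD3D, CD3E and CD3G stayed under 0.2 CPM in all 10 libraries, but TRAC lay at 10.6 to 17.4 CPM, NKG7 at 2.91 to 6.84, GNLY at 16.3 to 86.7 and IL7R at 114 to 539. None of the 4 tested was called between the groups by edgeR or DESeq2, and 1 was lower at an unadjusted p under 0.05. Of the 12 fibroblast, epithelial and endothelial markers, VWF lay at 2.55 to 6.03 CPM and COL1A1 at 1.51 to 5.69, and KDR was called higher with LPS+Dex (2.10, adjusted p = 0.0039). The part of these markers in the results below was not tested. The 7 B and plasma cell markers together reached at most 1.71 CPM in any LPS library and 2.48 in any LPS+Dex library, and the 10 erythroid and megakaryocyte markers 2.83 and 3.73. In bulk libraries such as these, fewer cells expressing a gene and fewer footprints per cell cannot be told apart.

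Libraries numbered 4 stood apart from the others in both groups. On the first principal component (44.1% of the variance) they lay at 50.3 (LPS) and 59.2 (LPS+Dex), and the other 8 libraries between -16.4 and -10.4. The second component (40.4%) separated the treatments, with LPS at 20.0 to 30.2 and LPS+Dex at -28.8 to -21.9. The TMM factor of the libraries numbered 4 was 0.616 and 0.617, against 0.963 to 1.07 in the other 8. LPS library 5 also differed from libraries 1 to 3 of its group, in another way. Over the 479 genes that were at least 2-fold higher with LPS+Dex in the separate RNA-seq libraries, its median deviation from the mean of LPS libraries 1 to 3 was 0.17 on the log2(CPM + 1) scale and 73.1% of those genes lay above that mean. Taken likewise within the LPS group, the share in libraries 1, 2 and 3 was 29.0 to 41.1%. Deviations of libraries of 1 group depend on each other, so those shares are no independent contrast to library 5. Over all 12197 tested genes the share was 51.0% in LPS library 5. This check was chosen after the values of FKBP5 and EGLN1 in that library had been seen. What set either library apart was not tested, and results that rest on them are given with and without them.

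**Figure D1:**
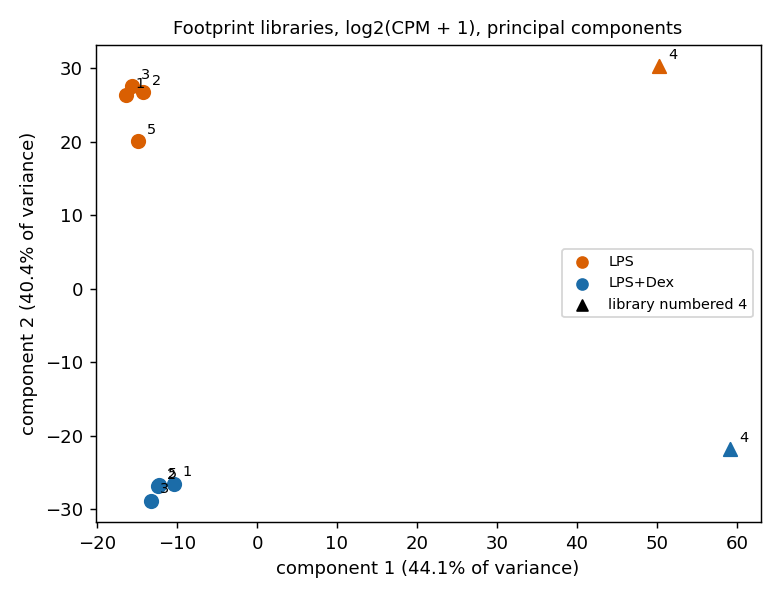
Principal components of log2(CPM + 1) in the 10 footprint libraries, component 1 on the x axis and component 2 on the y axis, with colour for treatment and the replicate number beside each point. The 2 libraries numbered 4 (triangles) lie at 50.3 and 59.2 on component 1, and component 2 separates LPS (20.0 to 30.2) from LPS+Dex (-28.8 to -21.9).

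The libraries numbered 4 were not shifted evenly. Their log2(CPM + 1) minus the mean of the other 4 libraries of the group had a median near 0 over all genes (-0.02 for LPS and for LPS+Dex), but lists of secreted and membrane proteins lay far above. The median was 1.58 (LPS) and 1.23 (LPS+Dex) over the cytokines, 1.22 and 1.55 over the chemokines, 1.45 and 1.74 over matrix proteases and coagulation factors, and 1.20 and 1.42 over the folding factors of the endoplasmic reticulum. It was 0.02 and 0.04 over the proteasome and -0.14 and -0.06 over the ribosomal proteins, which are made in the cytosol. Interferon-response genes differed between the groups, with -0.415 in LPS library 4, 0.10 in LPS+Dex library 4 and 1.27 in vehicle library 4. The replicate spread of cytokines was wide: the median standard error of the log2 fold change was 0.52 for cytokines and fell to 0.18 with the replicate number as a block, against 0.17 and 0.10 over all tested genes. The counts of the cytokine and chemokine lists are given both ways, as are single genes whose call changed with the block.

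**Figure D2:**
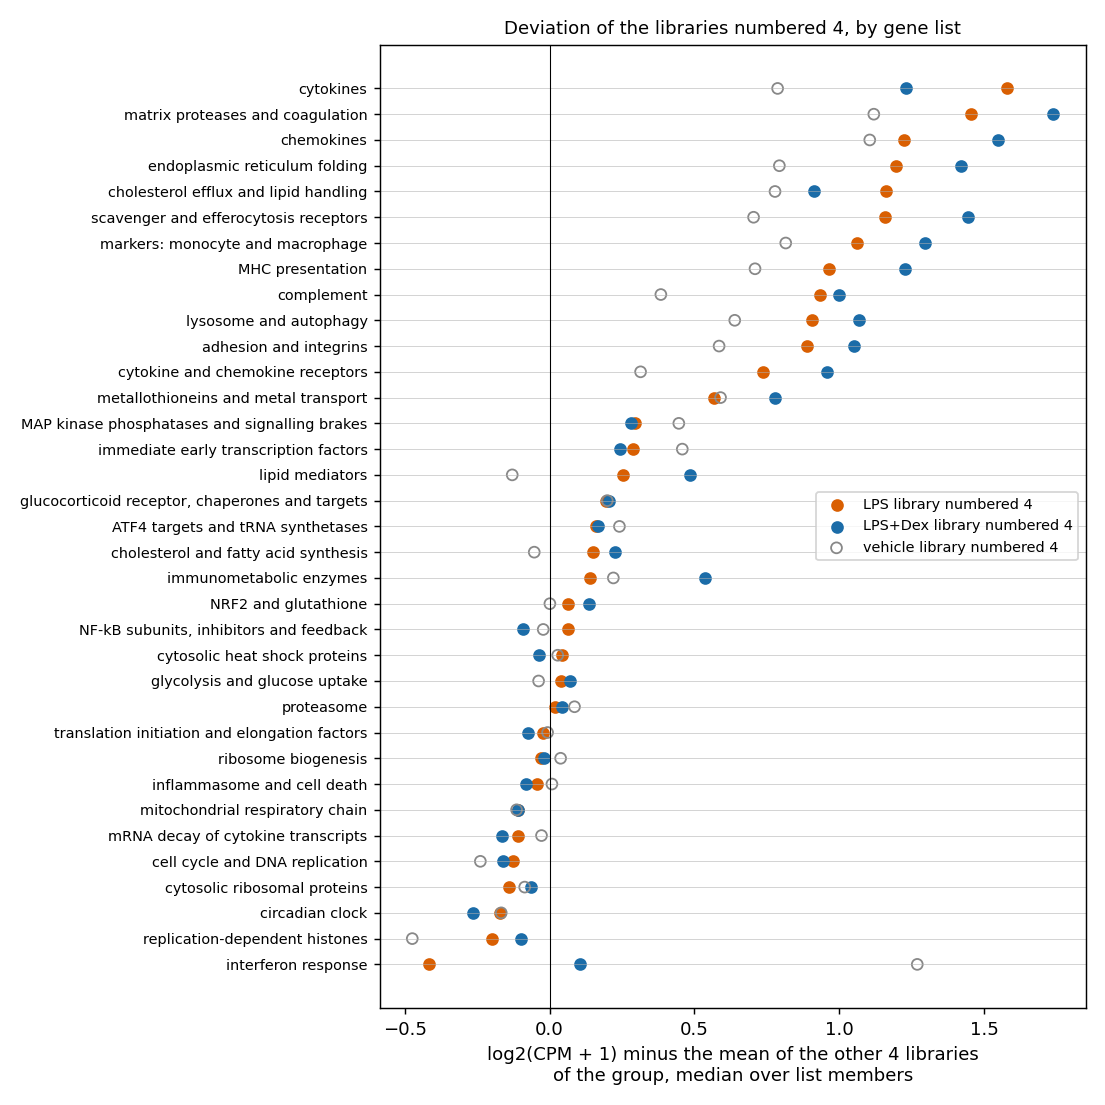
Deviation of the footprint library numbered 4 from the other 4 libraries of its group, as the median over the tested members of each gene list (x axis, log2 of CPM + 1; lists with at least 10 tested members on the y axis), with 1 point per treatment. Cytokines, matrix proteases, chemokines and folding factors of the endoplasmic reticulum lie near or above 1.2 in both treated groups, while the proteasome and ribosomal proteins lie near 0.

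Dexamethasone changed footprints of genes in both directions, with the 15 footprint libraries fitted together. At an adjusted p under 0.05, 2083 genes were called (17.1% of those tested), 1108 higher with LPS+Dex (9.08%) and 975 lower (7.99%). At least 2-fold were 478 rises (3.92%) and 312 falls (2.56%). With the replicate block 3769 genes were called (30.9%), 1961 higher (16.1%) and 1808 lower (14.8%), of which 4.38% and 3.25% of all tested were at least 2-fold. Without the 3 libraries numbered 4, vehicle included, 3855 of 12233 were called (31.5%), 1980 higher (16.2%) and 1875 lower (15.3%), with 4.48% and 3.56% at least 2-fold. The larger sets contained nearly all of the smaller: 2080 of the 2083 genes were called in the same direction with the block, and 2048 in all 3 fits. Of the 1689 genes called only with the block, 1371 were also called in the same direction without the libraries numbered 4. Among the 2083 genes, 2006 moved the same way in all 5 pairs of equal number, and the libraries of the groups did not overlap for 1504 (1678 of all tested genes, 13.8%). The genes were called from these same libraries, so both counts describe the calls and do not test them. The labels also do not state that equal numbers are pairs. Without LPS library 5 alone the number of called genes was 1992.

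**Figure D3:**
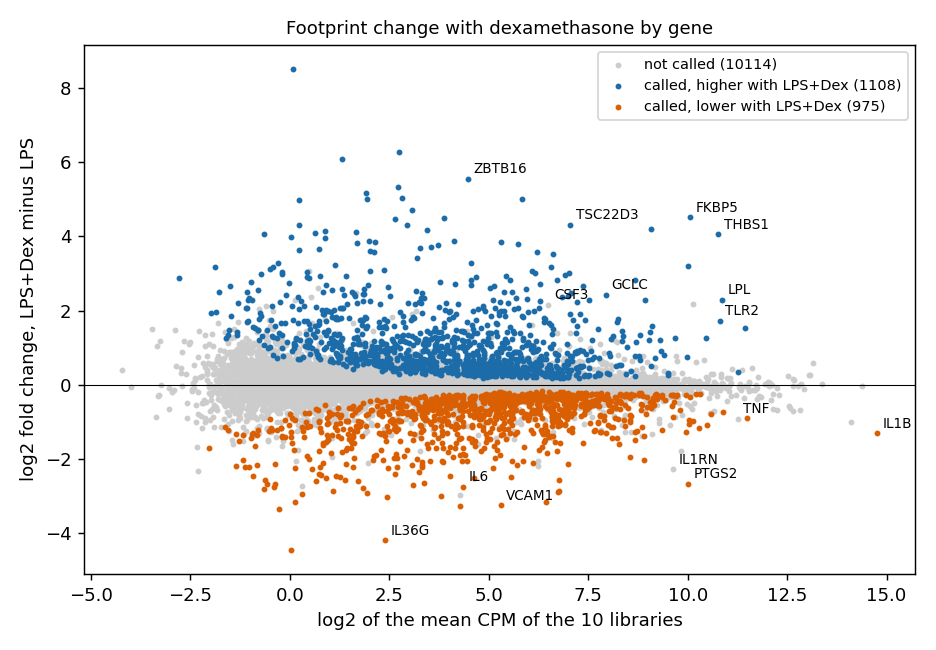
Log2 fold change of footprints, LPS+Dex minus LPS, against the log2 of the mean CPM of the 10 libraries, with 1 point per tested gene. Coloured points passed an adjusted p under 0.05 without the block (1108 higher, 975 lower); IL1B lies at the far right, below 0, while CSF3, TNF and IL1RN are grey because their spread across libraries was wide.

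Of 47 tested genes in a list of the receptor, its chaperones and its targets, 26 rose and 4 fell, beside 9.08% and 7.99% of all tested genes, and with the block 32 rose and 8 fell, beside 16.1% and 14.8%; without LPS replicate 5 it was 25 and 4. The median log2 fold change was 0.947 against 0.015 over all genes. The list's share of all footprint counts was 1.25% ± 0.05 (SD, n = 5) with LPS and 1.93% ± 0.07 with LPS+Dex, beside 0.97% ± 0.10 with vehicle.

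FKBP5, a co-chaperone that damps the receptor (chromosome 6, 35573590 to 35728583), stood at 79.7, 75.3, 78.9, 58.6 and 155 CPM in LPS libraries 1 to 5 and at 2078, 2174, 2142, 1694 and 2157 in LPS+Dex libraries 1 to 5. The groups were far apart, the highest LPS library was number 5, and the vehicle mean was 23.2 CPM. The rise was 22.9-fold, a log2 fold change of 4.52 ± 0.26 (SE; adjusted p = 3e-08). TSC22D3, the anti-inflammatory leucine zipper protein GILZ (chromosome X, 107713221 to 107775988), stood at 12.7, 12.1, 10.7, 9.73 and 17.6 CPM with LPS and 250, 237, 254, 277 and 244 with LPS+Dex. All 5 LPS+Dex libraries lay close together, and the rise was 20.0-fold (4.32 ± 0.17, adjusted p = 5.51e-10). PER1, a repressor in the circadian clock, was at 24.4, 20.8, 22.7, 49.2 and 27.4 CPM with LPS and 211, 219, 236, 298 and 198 with LPS+Dex. Library 4 was the highest in both groups, which did not overlap, and the log2 fold change was 3.01 ± 0.27 (adjusted p = 1.58e-06).

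DUSP1, a phosphatase that switches off p38 and JNK, was at 83.3, 78.9, 72.6, 187 and 83.1 CPM with LPS and 511, 478, 557, 1627 and 436 with LPS+Dex. Libraries numbered 4 were the highest of their group, and the rise was 2.84 ± 0.47 (adjusted p = 0.000493). ZBTB16, a zinc finger repressor, had the largest rise that the naming rule admits, 5.55 ± 0.58 (adjusted p = 6.23e-06), from 0.88 ± 1.19 to 43.8 ± 8.03 CPM; without LPS replicate 5 it was 6.91. PDK4, which turns off pyruvate dehydrogenase, rose by 4.50 ± 0.26. The small GTPase RHOB rose by 2.92 ± 0.20, the stress protein SESN1 by 2.49 ± 0.14, the insulin signalling adaptor IRS2 by 2.23 ± 0.21 and the transcription factor CEBPD by 1.32 ± 0.12. KLF9 rose by 1.42 ± 0.15 and DDIT4, an inhibitor of mTORC1, by 0.96 ± 0.14.

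Some genes of that list went the other way. SGK1, a kinase of salt and ion transport, was at 504, 533, 537, 887 and 422 CPM with LPS and 197, 220, 213, 313 and 249 with LPS+Dex. All LPS+Dex libraries lay below all LPS libraries and also below the vehicle mean of 343 CPM. The log2 fold change was -1.27 ± 0.18 (adjusted p = 0.000133), and -1.13 in RNA-seq. RGS2, a brake on G protein signalling, fell (-1.42 ± 0.17), as did GADD45B (-0.78 ± 0.15) and NR3C1, the glucocorticoid receptor itself (-0.81 ± 0.15, adjusted p = 0.00118).

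Of 10 listed metallothioneins, small metal-binding proteins, 6 passed the filter on low counts and rose, while MT1A, MT1B, MT1H and MT3 were too low to test. The 6 made up 6 of the 7 rises among 18 tested genes of metallothioneins and metal transport, where 1 gene fell (9.08% and 7.99% of all tested genes). MT2A rose by 3.81 ± 0.38, from 7.09 ± 2.89 to 100.0 ± 24.6 CPM. MT1M (3.00 ± 0.56), MT1E (2.54 ± 0.17), MT1X (1.99 ± 0.16), MT1G (1.595 ± 0.446) and MT1F (1.13 ± 0.29) also rose, as did the zinc exporter SLC30A1 (1.86 ± 0.20). Short reads can match several MT1 genes, so the division among them is uncertain. The exception was HMOX1, which breaks down haem (-1.43 ± 0.42, adjusted p = 0.0273); that call was lost on leaving out any of 5 single libraries (adjusted p up to 0.0713).

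Other genes among the 10 largest rises had varied roles. THBS1, the matrix protein thrombospondin 1 (chromosome 15, 39581079 to 39599466), was at 152, 164, 150.0, 268 and 258 CPM with LPS and 2221, 1968, 1901, 8469 and 1902 with LPS+Dex. LPS+Dex library 4 was about 4 times the others; the log2 fold change was 4.05 ± 0.44 (adjusted p = 8.29e-06), and 3.33 without that library. SLAMF1, a receptor of the SLAM family, was at 2.80, 2.14, 2.37, 5.98 and 3.96 CPM with LPS and 64.2, 60.9, 57.7, 305 and 64.0 with LPS+Dex. It too was highest in LPS+Dex library 4, and rose by 5.01 ± 0.54, or 4.18 without that library. EGLN1, the prolyl hydroxylase that marks HIF-1 alpha for destruction, was at 4.71, 4.13, 4.16, 5.00 and 7.84 CPM with LPS and 70.5, 68.6, 82.5, 62.6 and 87.2 with LPS+Dex. Its library 4 was not raised, and the log2 fold change was 3.84 ± 0.18 (adjusted p = 4.72e-09). FSTL3, a secreted antagonist of activin, rose by 4.20 ± 0.40, PKP2, a desmosome protein, by 4.18 ± 0.45 (4.88 without LPS replicate 5) and SLC44A2, a choline transporter, by 3.87 ± 0.29.

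The called rises summed to 46491 CPM and the called falls to -68601 CPM. Among the 8 largest gains in mean CPM, THBS1, FKBP5 and FSTL3 were also among the 10 largest fold rises. LPL, lipoprotein lipase (chromosome 8, 19939253 to 19967259), was at 261, 274, 286, 2007 and 340 CPM with LPS and 1907, 1909, 1712, 8112 and 1914 with LPS+Dex. Libraries 1, 2, 3 and 5 did not overlap between groups, while LPS library 4 lay above all LPS+Dex libraries but number 4. The rise was 2.30 ± 0.74 (adjusted p = 0.0436), and 2.55 with the block (adjusted p = 1.3e-11). Without LPS+Dex replicate 4 it was 1.55 and not called (adjusted p = 0.122), and without LPS replicate 4 it was 3.42. SMAP2, an Arf GTPase-activating protein, rose by 1.52 ± 0.10, from 1429 ± 80.9 to 4097 ± 263 CPM; TLR2, the receptor for bacterial lipoproteins, rose by 1.73 ± 0.37 and the gene of carboxypeptidase M, whose symbol is CPM, by 3.215 ± 0.285. CTSC, a lysosomal protease, rose by 1.25 ± 0.40 (adjusted p = 0.0431), a call that 7 single libraries could each end when left out, with adjusted p up to 0.118.

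Part of the secreted ligands of inflammation fell, more of them with the block. Of 33 tested cytokines and growth factors 12 fell and 1 rose (7.99% and 9.08% of all tested genes), and 21 fell and 4 rose with the block (14.8% and 16.1% of all); the median log2 fold change was -1.26. Of 24 chemokines, which attract leukocytes, 6 fell and 0 rose (0 also at an unadjusted p under 0.05 and by DESeq2), and 21 fell and 0 rose with the block, with a median of -0.93. Leaving out LPS+Dex library 4 alone gave 20 falling cytokines and 16 falling chemokines, in a fit that called 2326 of all genes in either direction. Library 4 was high for both lists in both groups, so leaving out only the LPS+Dex one favours falls. Leaving out only LPS library 4 does the reverse. IL1A was -4.16 in the first case and -2.30 in the second, where TNF was 0.14. Together the cytokines took 3.76, 3.88, 3.91, 5.12 and 3.21% of all footprint counts in LPS libraries 1 to 5 and 1.59, 1.48, 1.48, 2.72 and 1.54% with LPS+Dex, against a mean of 0.44% with vehicle. The 2 groups did not overlap. The chemokines took 4.30, 4.55, 4.78, 8.26 and 4.45% with LPS and 2.77, 2.72, 2.59, 6.13 and 2.84% with LPS+Dex, and LPS+Dex library 4 lay above LPS libraries 1, 2, 3 and 5.

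IL1B, the interleukin that inflammasomes activate (chromosome 2, 112829751 to 112836779), had more footprints than any other cytokine. It was at 34370, 35730, 36410, 62270 and 28810 CPM with LPS and 12630, 11280, 11260, 32750 and 11900 with LPS+Dex, and the vehicle mean was 2464. LPS+Dex library 4 lay above LPS library 5, so the groups overlapped. The log2 fold change was -1.31 ± 0.42 (adjusted p = 0.0455) and -1.41 with the block (adjusted p = 8.54e-08). Of the 15 fits that each left out 1 library, 11 ended the call (adjusted p up to 0.1), with the value between -1.75 and -1.085. IL6, the driver of the acute phase response (chromosome 7, 22727200 to 22731998), was at 32.6, 33.6, 32.9, 51.3 and 27.2 CPM with LPS and 4.90, 4.65, 4.96, 7.53 and 4.61 with LPS+Dex. These groups were well apart, the vehicle mean was 0.27 CPM, and the fall was -2.74 ± 0.19 (adjusted p = 1.17e-07). IL1A fell (-3.15 ± 0.71, adjusted p = 0.00559; leaving out LPS replicate 4 gave -2.30 and leaving out LPS+Dex replicate 4 gave -4.16), as did the epithelial-type cytokine TSLP (-2.87 ± 0.61; -1.90 and -3.60 without the same 2 libraries).

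Other ligands that fell were IL36G (-4.18 ± 0.46), CSF2, which supports granulocytes and macrophages (-2.99 ± 0.80), IL23A (-2.90 ± 0.77), OSM (-2.50 ± 0.71) and IL12B, the subunit shared by interleukins 12 and 23 (-2.36 ± 0.22). The anti-inflammatory IL10 also fell (-1.37 ± 0.37, adjusted p = 0.0164). The sole rise was that of IL15 (1.01 ± 0.32, adjusted p = 0.0387), at 1.24 and 2.51 CPM, and 8 single libraries could each end it when left out. Among chemokines CCL19 (-2.23 ± 0.56), CXCL9 (-2.17 ± 0.33), CXCL11 (-1.67 ± 0.38) and CCL5 (-0.97 ± 0.18) fell. CXCL10, which attracts T cells, was at 275, 265, 270, 129 and 288 CPM with LPS and 74.2, 81.1, 78.6, 63.0 and 118 with LPS+Dex. Here library 4 was the lowest of both groups, which did not overlap, and the log2 fold change was -1.56 ± 0.40 (adjusted p = 0.0121).

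For several well-known ligands the call depended on how the libraries numbered 4 were handled. TNF, the early inflammatory cytokine (chromosome 6, 31575565 to 31578336), was at 1516, 1633, 1564, 9785 and 1444 CPM with LPS and 955, 913, 811, 5102 and 704 with LPS+Dex. Each LPS+Dex library lay below the LPS library of its number, but LPS+Dex library 4 lay above 4 of the LPS libraries. The log2 fold change was -0.91 ± 0.67 without the block (adjusted p = 0.443) and -0.89 with it (adjusted p = 0.0011); without LPS replicate 4 alone it was 0.14. CXCL8, which attracts neutrophils, was at 15040, 17280, 18710, 53690 and 13920 CPM with LPS and 7611, 7259, 6058, 30380 and 7478 with LPS+Dex. The pattern was the same, with -1.01 ± 0.58 (adjusted p = 0.289) and -1.11 with the block (adjusted p = 1.38e-07). CCL2, which attracts monocytes, had values of -2.19 (adjusted p = 0.0825) and -2.80 (adjusted p = 3.43e-07). CCL3 had -0.67 (adjusted p = 0.533) and -0.83 (adjusted p = 1.42e-06), with reads that may be shared with its close copy CCL3L3. In RNA-seq the libraries numbered 4 had TMM factors of 0.933 (LPS) and 0.958 (LPS+Dex), within 0.916 to 0.973 for the 8 libraries of both groups. There the log2 fold changes were -0.65 for TNF, -1.24 for CXCL8, -3.20 for CCL2 and -0.74 for CCL3, and all 4 were called.

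IL1RN and CSF3 were of this kind too and moved in opposite directions. IL1RN, the natural antagonist of the interleukin 1 receptor (chromosome 2, 113099360 to 113134014), was at 501, 571, 539, 4553 and 468 CPM with LPS and 92.3, 85.2, 82.0, 1019 and 88.0 with LPS+Dex. Every pair of equal number fell, and outside library 4 the groups were far apart. The log2 fold change was -2.28 ± 1.04 (adjusted p = 0.168) and -2.49 with the block (adjusted p = 1.4e-12). CSF3, the granulocyte growth factor G-CSF (chromosome 17, 40015440 to 40017813), was at 9.67, 12.1, 10.95, 120.0 and 14.03 CPM with LPS and 53.5, 45.2, 49.5, 542 and 50.3 with LPS+Dex. It was higher in all 5 pairs, with 2.16 ± 0.88 (adjusted p = 0.118) and 2.11 with the block (adjusted p = 5.38e-10). CSF3 was 1 of 4 cytokines higher with the block, beside IL15, CSF1 and PDGFB. Other genes that passed only with the block were LIF (-3.08), INHBA (-2.07), TFPI2 (-1.84), PLAU (-1.43) and CD83 (-1.07) among the lower, and DHRS3 (1.52), MMP19 (1.20), NPC1 (1.03), MFGE8 (0.90) and RHBDF2 (0.85) among the higher.

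**Figure D4:**
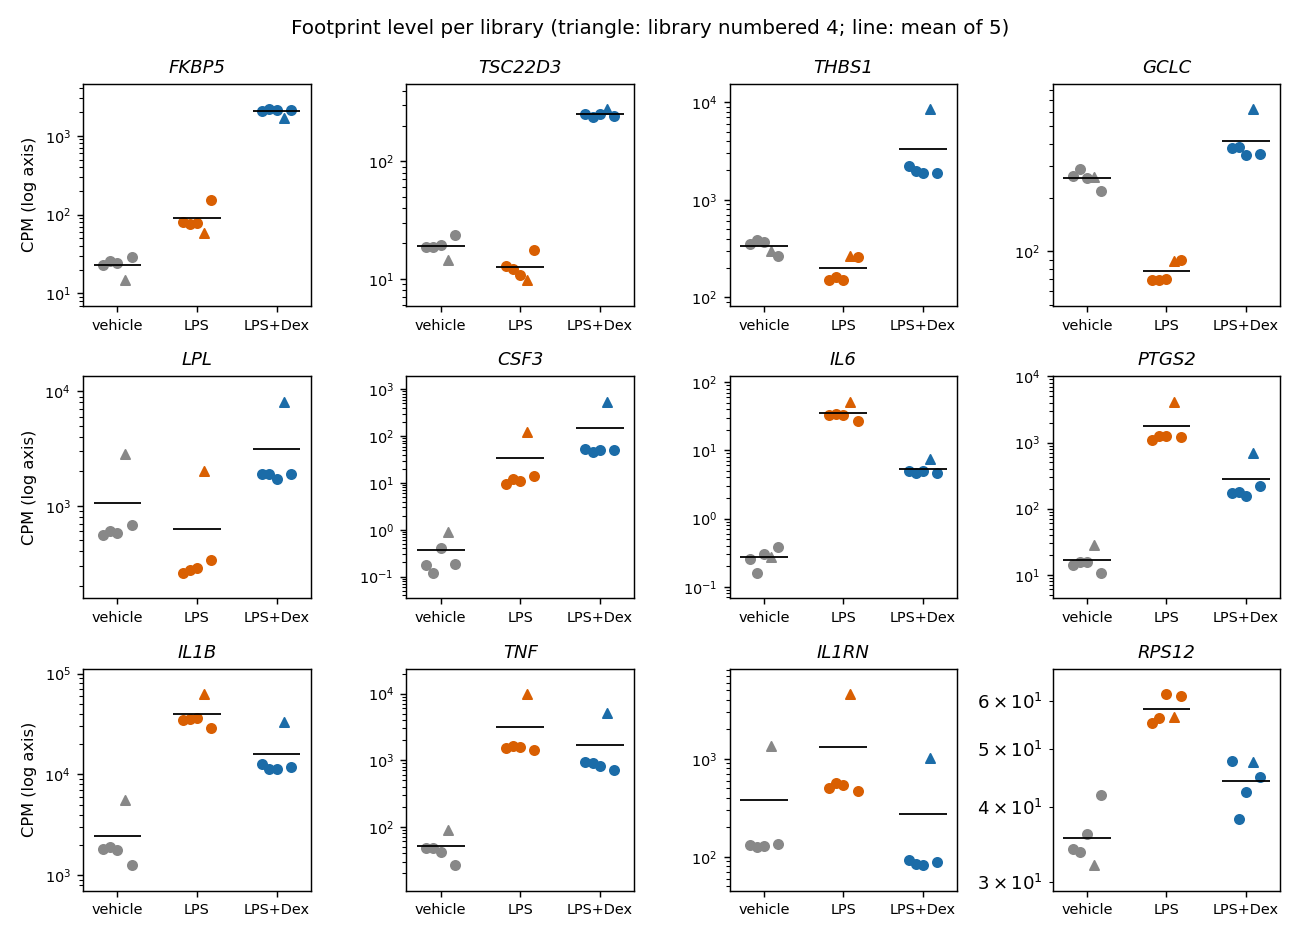
Footprint level of 12 genes in each library (CPM, log axis, a range of its own in each panel) for vehicle, LPS and LPS+Dex, with triangles for the libraries numbered 4 and a line at the mean of 5. FKBP5, TSC22D3, GCLC and IL6 show no overlap between LPS and LPS+Dex, while for TNF, IL1RN, LPL and CSF3 the libraries numbered 4 lie above the other 4 of their group.

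Of 20 tested genes of lipid mediators 4 fell and 2 rose, beside 7.99% and 9.08% of all tested genes, and their median was -0.038. PTGS2, the inducible cyclooxygenase of prostaglandin synthesis (chromosome 1, 186671791 to 186680423), was at 1090, 1237, 1275, 4130 and 1218 CPM with LPS and 173, 178, 157, 685 and 220 with LPS+Dex. All LPS+Dex libraries lay below all LPS libraries, and the fall was -2.66 ± 0.50 (adjusted p = 0.00136; -3.30 without LPS+Dex replicate 4). PLA2G4A, which frees arachidonic acid for it, fell by -1.32 ± 0.17 and the prostaglandin E2 receptor gene PTGER2 by -1.43 ± 0.13, whereas ALOX5AP, a partner of the leukotriene enzyme, rose by 0.64 ± 0.14. VCAM1, an adhesion molecule for leukocytes (chromosome 1, 100719742 to 100739045), was at 79.3, 78.6, 78.1, 59.0 and 62.2 CPM with LPS and 7.73, 6.83, 6.37, 7.53 and 8.98 with LPS+Dex. The latter were close to the vehicle mean of 5.80 CPM, and the log2 fold change was -3.25 ± 0.24 (adjusted p = 1.92e-07).

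Of 42 tested receptors for cytokines, chemokines and microbial ligands 9 fell and 4 rose, beside 7.99% and 9.08% of all tested genes, and 16 fell and 10 rose with the block, beside 14.8% and 16.1%; the median was -0.057. Several Toll-like receptors fell: TLR8 (-1.78 ± 0.49) and TLR7 (-1.50 ± 0.26), which sense RNA, TLR1 (-1.42 ± 0.29), and TLR4, which senses LPS itself (-1.32 ± 0.40, adjusted p = 0.0335). CCR7, which guides cells to lymph nodes, fell by -2.23 ± 0.51 (-1.59 when LPS replicate 4 was left out, -2.91 when LPS+Dex replicate 4 was), and the interleukin 18 receptor gene IL18R1 by -1.52 ± 0.18. Against these stood TLR2 and IL1R2, the decoy receptor for interleukin 1 (1.80 ± 0.36), with IFNGR1 (0.78 ± 0.23). The costimulatory ligands CD86 (-1.915 ± 0.225), CD80 (-1.45 ± 0.10) and the inhibitory ligand CD274 (-1.71 ± 0.36) made up all 3 calls among 23 genes of antigen presentation. All 3 were falls, beside 7.99% lower and 9.08% higher over all tested genes.

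Of 35 tested NF-kB subunits, inhibitors and feedback genes 15 fell and 4 rose (7.99% and 9.08% of all tested genes), with a median of -0.31. TRAF1, an adaptor of TNF receptors, was at 3804, 3490, 3499, 3846 and 3963 CPM with LPS and 2132, 1888, 2037, 2050 and 1852 with LPS+Dex. Libraries numbered 4 did not stand out here and the groups were far apart, with a log2 fold change of -0.90 ± 0.09 (adjusted p = 5.17e-06). TNIP3 (-2.48 ± 0.17), BCL3 (-1.46 ± 0.14) and the subunit genes REL (-0.92 ± 0.14) and NFKB2 (-0.54 ± 0.13) fell. IRAK3, a kinase-like protein that blocks Toll-like receptor signalling, rose by 2.28 ± 0.15 (adjusted p = 1.01e-07), and TNIP2 by 1.20 ± 0.15. NFKBIA, the inhibitor IkB alpha, which glucocorticoids are known to raise in other cells, was at 2030, 2011, 1901, 2459 and 2185 CPM with LPS and 2254, 2040, 2269, 2274 and 2204 with LPS+Dex. These ranges overlapped, and the value of 0.06 ± 0.11 did not pass (adjusted p = 0.799; 0.617 with the block). TNFAIP3, which encodes the ubiquitin editor A20, had 0.08 ± 0.14 (adjusted p = 0.801).

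Interferon-response genes fell in 20 of 57 tested cases, beside 7.99% of all tested genes, with a median of -0.86. They rose in 0 (by edgeR, by DESeq2 and at an unadjusted p under 0.05), beside 9.08%. With the block 44 fell (14.8% of all), and without the libraries numbered 4 it was 52 (15.3% of all). The guanylate binding proteins GBP1 to GBP5 all fell, among them GBP3 (-1.51 ± 0.20) and GBP5 (-1.38 ± 0.31), as did the tryptophan-degrading enzyme IDO1 (-1.32 ± 0.20) and the transcription factors IRF1 (-0.94 ± 0.16) and IRF8 (-0.75 ± 0.17). MX1 (-1.21 ± 0.64, adjusted p = 0.247) and ISG15 (-1.09 ± 0.41, adjusted p = 0.0836) passed with the block (adjusted p = 0.0283 and 0.00761). IFIT1, which binds viral RNA, had -1.065 ± 0.693 (adjusted p = 0.367) and did not pass with the block (adjusted p = 0.141), but did without the libraries numbered 4 (adjusted p = 3.19e-10); its reads may be shared with other IFIT genes. Leaving out vehicle library 4 alone raised the count of falls to 37, in a fit that called 2370 of all genes in either direction, against 2083 with it. In this comparison a vehicle library has a part only in the filter, the scaling and the spread.

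Among brakes on kinase signalling 6 of 26 rose and 7 fell (9.08% and 7.99% of all tested genes). SPRY1, an inhibitor of receptor tyrosine kinase signalling, rose by 5.04 ± 0.49 from 0.38 ± 0.42 CPM (5.95 without LPS replicate 5) and DUSP7 by 1.21 ± 0.20. RGS16 (-2.02 ± 0.22) and SOCS3 (-0.74 ± 0.15) fell, as did DUSP6, which acts on ERK (-1.28 ± 0.38, adjusted p = 0.0313, lost on leaving out any of 5 single libraries, with adjusted p up to 0.0767). Of 31 immediate early transcription factors 5 rose and 10 fell (9.08% and 7.99% of all tested genes). KLF4 (2.21 ± 0.31), FOS (1.62 ± 0.22) and JUN (0.73 ± 0.17) rose, whereas EGR2 (-2.11 ± 0.24), ATF3 (-1.77 ± 0.20), NR4A3 (-1.55 ± 0.20) and JUNB (-0.58 ± 0.13) fell. Of 26 tested genes of cytokine mRNA decay 3 rose and 4 fell, near the shares of all tested genes (9.08% and 7.99%), and the median was -0.067. ZFP36L1, which binds AU-rich elements, was at 145, 148, 134, 145 and 131 CPM with LPS and 421, 421, 450.1, 607 and 371 with LPS+Dex. Its level with LPS+Dex lay between that with LPS and the vehicle mean of 632 CPM, and the rise was 1.69 ± 0.13 (adjusted p = 2.36e-07). Its relative ZFP36 rose by 0.95 ± 0.22 and the endonuclease gene ZC3H12A by 0.66 ± 0.10, while BTG2, which speeds deadenylation, fell by -1.58 ± 0.24, BTG1 by -0.63, ZC3H12C by -0.55 and DCP1A by -0.29.

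Short windows before the transcription starts are shown for 6 of these genes, because they are named genes whose footprints moved and whose window holds letters known from binding sites of the glucocorticoid receptor or NF-kB. The sequences are RefSeq's (GRCh38.p14), 5′ to 3′ on the strand of the gene, with the matched letters in capitals. For CD86 and TNIP3 the window precedes an annotated start that lies inside the gene's coordinates. Which starts these cells used was not tested. C1QB, a subunit of the complement starter C1q, holds a match to a receptor-type motif (GNACA, any 3 letters, TGTNC). The other 5 hold an NF-kB-type motif, either GGG, any 2 letters, TTTCC (IL6, CD86) or the symmetric GGGA, any 2 letters, TCCC (VCAM1, CXCL10, TNIP3). RICTOR, a translation-list gene described below, met the same rule and is not printed. Its TTTCC form begins at position -241 from the start.
C1QB, chr1:22652986-22653065, plus strand: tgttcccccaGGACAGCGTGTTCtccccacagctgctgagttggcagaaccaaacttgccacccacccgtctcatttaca
IL6, chr7:22727092-22727171, plus strand: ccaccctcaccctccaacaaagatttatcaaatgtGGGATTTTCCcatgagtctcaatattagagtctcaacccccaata
CD86, chr3:122077667-122077746, plus strand: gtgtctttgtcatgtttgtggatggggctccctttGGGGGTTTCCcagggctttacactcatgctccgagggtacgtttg
VCAM1, chr1:100719645-100719724, plus strand: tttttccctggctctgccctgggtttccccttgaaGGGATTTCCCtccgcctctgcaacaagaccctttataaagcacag
CXCL10, chr4:76023575-76023654, minus strand: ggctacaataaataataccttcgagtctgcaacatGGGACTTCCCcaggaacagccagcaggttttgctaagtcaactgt
TNIP3, chr4:121164338-121164417, minus strand: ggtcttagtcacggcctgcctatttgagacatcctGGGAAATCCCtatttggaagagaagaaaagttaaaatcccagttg

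Over all genes these letters were rare. Windows of 250 bases before each start were searched on both strands, a gene can have several windows, and a window can hold both NF-kB forms. The receptor-type motif was in 0.327% of all 35116 windows, 0.241% of those of tested genes, 0.963% (6 of 623) of those of genes at least 2-fold higher and 0.257% (1 of 389) of those at least 2-fold lower. The symmetric NF-kB-type motif was in 0.772% of all windows, 0.876% of the tested, 0.642% of the higher and 2.57% of the lower genes. For the TTTCC form these shares were 1.73%, 2.02%, 1.93% and 3.08%. The interferon-type letters (GAAA, any 2 letters, GAAA) were in 3.02% of all windows, 2.54% of the tested, 2.41% of the higher and 5.66% of the lower. AP-1-type letters (TGA, any letter, TCA) were more common, in 6.57%, 4.5%, 6.26% and 7.71%, above the tested share in both directions. The windows of FKBP5, TSC22D3 and PER1 held no receptor-type motif. A match is a description of letters and no measure of binding, and these shares were not tested.

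C1QB footprints were few but separated the groups: 0.17, 0.35, 0, 0.79 and 0.82 CPM with LPS against 5.14, 4.61, 5.87, 8.91 and 5.69 with LPS+Dex (3.84 ± 0.50, adjusted p = 4.74e-05). LPS library 3 had no count, so its level was below what about 3 counts would give. C3AR1, the receptor for complement fragment C3a, rose by 2.72 ± 0.50. It and C1QB were the 2 calls among 15 tested complement genes, beside 9.08% of all tested genes that rose. C1QB passed the filter on low counts only through its LPS+Dex libraries, so only a rise could bring it into the count of the complement list. In that list 0 fell, also at an unadjusted p under 0.05 and by DESeq2, and 5 rose with the block (16.1% of all). FPR1, a receptor for bacterial formyl peptides, rose by 3.96 ± 0.51 (3.32 without LPS+Dex replicate 4), and TYRO3, a receptor for dying cells, by 2.68 ± 0.34. CD163, the haemoglobin scavenger receptor and a known glucocorticoid marker of macrophages, had 1.09 ± 0.42 (adjusted p = 0.0982) and 1.06 with the block (adjusted p = 3.74e-08). MERTK had 0.54 ± 0.68 (adjusted p = 0.696) and 0.58 with the block (adjusted p = 0.00108). The oxidised LDL receptor gene OLR1 fell by -1.94 ± 0.35. F3, tissue factor of coagulation, rose by 2.97 ± 0.63.

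Of 54 tested genes of the respiratory chain 1 rose (COX5B, 0.27 ± 0.09, adjusted p = 0.0481, lost under 16 of 27 other settings) and 0 fell by edgeR, against 17.1% called over all genes. At an unadjusted p under 0.05 there were 6 falls, and DESeq2 called 4. Among 27 glycolysis genes 3 rose and 1 fell, beside 9.08% and 7.99% of all tested genes. The one that fell was PFKFB3, which drives glycolytic flux, by -1.38 ± 0.11 (adjusted p = 2.93e-07). Of 30 genes of cholesterol and fatty acid synthesis 4 rose and 1 fell (9.08% and 7.99% of all tested genes). The desaturases FADS1 (3.07 ± 0.33) and FADS2 (2.33 ± 0.27) rose, and INSIG1, which holds back cholesterol synthesis, fell by -1.56 ± 0.41 (adjusted p = 0.0158). ANGPTL4, an inhibitor of lipoprotein lipase, rose by 3.18 ± 0.67 (2.47 without LPS+Dex replicate 4) and the lipid-sensing receptor gene PPARG by 1.61 ± 0.27. ACOD1, which makes itaconate, fell by -2.56 ± 0.19, the kynurenine enzyme gene KMO by -1.96 ± 0.13 and NAMPT, of NAD synthesis, by -1.04 ± 0.09, while CD38, which consumes NAD, rose by 2.65 ± 0.19 and SLC7A2, an arginine transporter, by 2.28 ± 0.26.

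In the NRF2 list, 10 of 24 tested genes fell and 2 rose (7.99% and 9.08% of all tested genes), and the rate-limiting enzyme of glutathione synthesis was the largest exception. GCLC, its catalytic subunit (chromosome 6, 53497341 to 53545101), was at 69.0, 69.0, 70.3, 88.6 and 89.8 CPM with LPS and 380, 382, 345, 623 and 350.0 with LPS+Dex. All LPS libraries lay below the vehicle mean of 258 CPM and every LPS+Dex library lay above that mean; the rise over LPS was 2.43 ± 0.16 (adjusted p = 1.05e-07). Its regulatory partner GCLM fell by -0.84 ± 0.12. TXNRD1, thioredoxin reductase (-1.05 ± 0.15), SRXN1 (-0.70 ± 0.11), NQO1 (-0.36 ± 0.11) and NFE2L2, the factor NRF2 itself (-0.45 ± 0.12), fell as well. The count of falls was 6 to 11 when single libraries were left out, the lowest without LPS replicate 2, LPS+Dex replicate 2 or LPS+Dex replicate 3.

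A part of the ribosomal proteins were lower by a small amount. Of 72 tested, 19 fell and 0 rose (7.99% and 9.08% of all tested genes), and the median log2 fold change was -0.24. With the block 48 fell (14.8% of all). In RNA-seq 0 of 78 tested were called in either direction by edgeR or DESeq2, and 0 had an unadjusted p under 0.05. The RNA-seq median over the 72 genes tested in footprints was 0.12, and whether the assays differed was not tested here. RPS12 was at 55.2, 56.1, 61.6, 56.5 and 61.1 CPM with LPS and 47.8, 38.3, 42.3, 47.5 and 44.9 with LPS+Dex. The groups did not overlap, and the value was -0.40 ± 0.08 (adjusted p = 0.00349). These differences are near the limit of the test. With 1 library left out the number of falls ranged from 6 (without LPS replicate 2 or LPS+Dex replicate 2) to 28 (without LPS replicate 4). With no filter on low counts it was 6. Over all genes these fits called 1748, 1755 and 2282 in either direction, and 1902 with no filter. A count of 6 among 72 is near the 7.99% of all tested genes that fell in the fit of all 15 libraries without the block. The median was -0.24 to -0.26 under TMM, RLE and upper quartile scaling. Ribosomal proteins have many processed pseudogenes, so reads that match several copies make their levels uncertain. At the annotated start, a C followed by 4 letters that are each C or T, as in the terminal oligopyrimidine tract by which mTORC1 controls these mRNAs, was found in 44 of 57 ribosomal protein genes with a RefSeq promoter (77.2%) and 7.6% of tested genes.

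Of 60 translation factors 10 fell and 3 rose, beside 7.99% and 9.08% of all tested genes, and 21 fell and 5 rose with the block, beside 14.8% and 16.1%. EEF1A1, the elongation factor that brings tRNA to the ribosome, fell by -0.49 ± 0.13, EIF5 by -0.55 ± 0.11 and EIF4E, the cap-binding protein, by -0.34 ± 0.10. RICTOR, a subunit of mTORC2, fell by -0.68 ± 0.15. PABPC4, a poly(A)-binding protein, went the other way, at 743, 672, 713, 812 and 854 CPM with LPS and 1329, 1293, 1281, 1208 and 1232 with LPS+Dex. The groups were well apart and the rise was 0.74 ± 0.09 (adjusted p = 1.8e-05). Ribosome assembly factors fell in 8 of 48 cases (7.99% of all tested genes), among them GAR1 (-0.34 ± 0.08), and UBTF, a factor of ribosomal RNA transcription, rose by 0.45 ± 0.06. Proteasome subunits fell in 4 of 34, near the 7.99% of all tested genes, among them PSMD11 (-0.33 ± 0.06). In the folding machinery HERPUD1 rose by 1.496 ± 0.125 and EDEM1 fell by -1.23 ± 0.23. These were the only calls among 28 genes of the endoplasmic reticulum, beside 17.1% called over all tested genes. Of the cytosolic chaperones DNAJB1 rose by 0.91 ± 0.08 and HSPH1 fell by -0.68 ± 0.07. The caspase genes of the inflammasome CASP5 (-1.64 ± 0.33), CASP4 (-0.72 ± 0.08) and CASP1 (-0.70 ± 0.14) fell, in a list where 9 of 32 fell and 1 rose (7.99% and 9.08% of all tested genes).

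**Figure D5:**
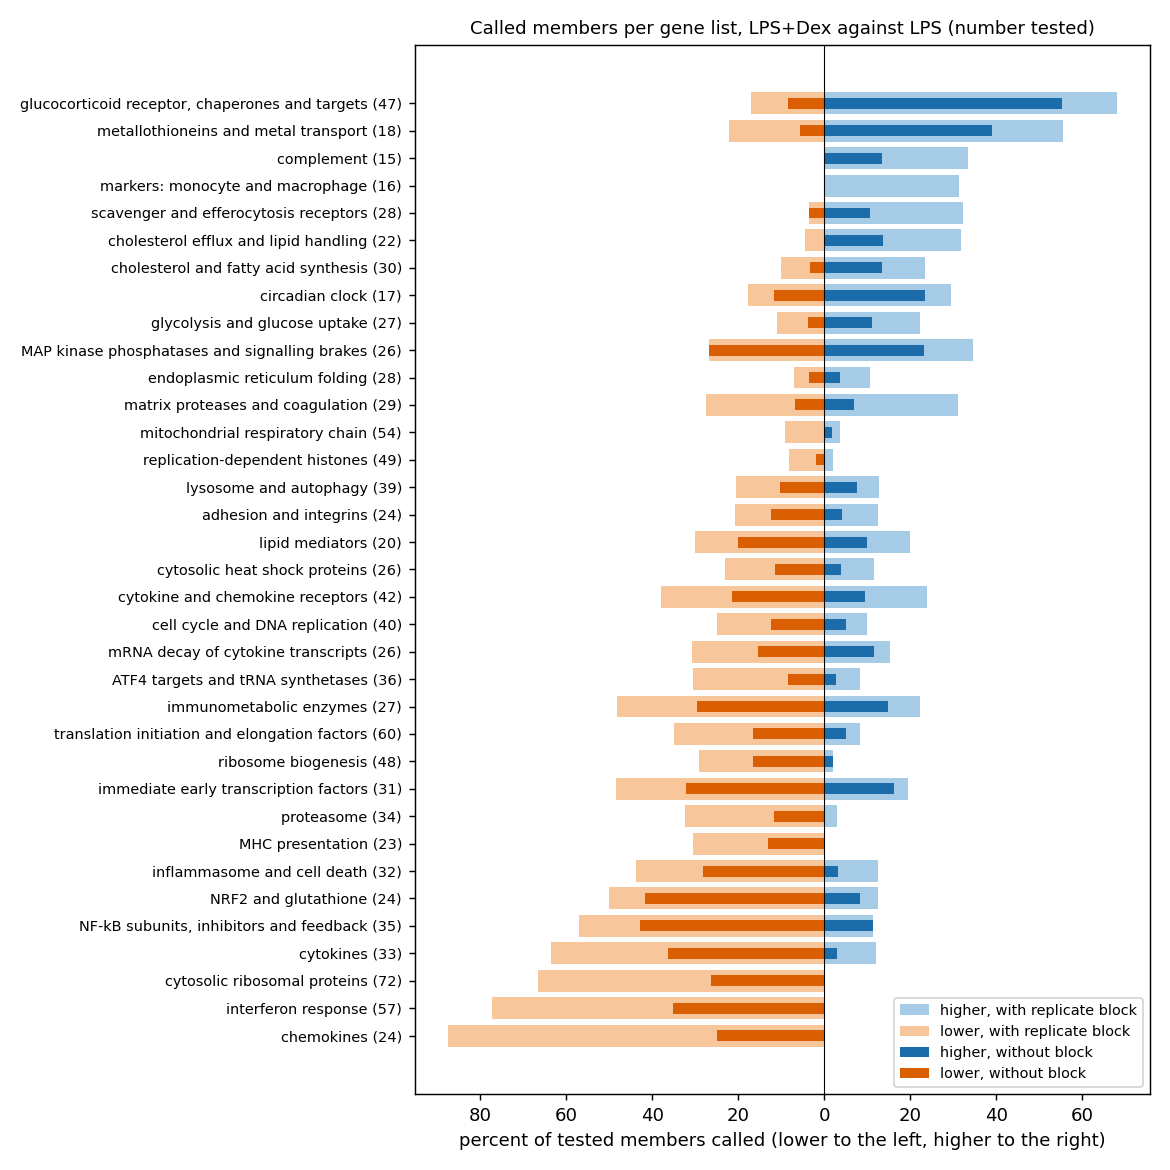
Percent of the tested members of each gene list that were called between LPS+Dex and LPS, lower to the left and higher to the right, without the replicate block (dark bars) and with it (pale bars); the number tested stands after each name. Glucocorticoid targets and metallothioneins extend to the right, while chemokines, interferon-response genes and ribosomal proteins extend to the left with no member called higher.

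Most calls were also present in the mRNA libraries of the same treatments (4 per group, fitted separately), where 4123 of 13327 genes were called (30.9%), 15.5% higher and 15.4% lower, with 4.17% and 4.04% at least 2-fold. Of the 2060 footprint calls tested there, 1644 were called in the same direction, 415 were not called and 1 was called in the opposite direction. At least 2-fold, 435 of 471 rises and 275 of 297 falls had the same call in mRNA. THBS1 had 4.05 in footprints and 3.10 in mRNA, IL6 -2.74 and -2.37, IL36G -4.18 and -2.60, and GCLC 2.43 and 2.04. Other genes had the larger value in mRNA, such as PTGS2 (-2.66 and -3.19) and VCAM1 (-3.25 and -3.805). MFGE8, whose footprints passed only with the block, had 0.90 and 2.55. SLC7A2 had 2.28 in footprints and 0.89 in mRNA (adjusted p = 0.0568), and the ribosomal proteins are described above. No test of the difference between assays was made for any of these genes.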

How the data were processed

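The 2 tables of raw counts, 1 for footprints and 1 for mRNA reads, hold the reads per Ensembl gene that the authors deposited, with no scaling. Tools named per the submitters' processing notes are Bowtie2 2.4.5, STAR 2.7.10a, featureCounts 2.0.1 and DESeq2 1.26.0, with the build GRCh38/hg38. For the counted feature, the strand setting and multiply matching reads, the answer is: not given in the sources used here. Names came from a gene name table (20407 of 20453 genes) and coordinates from RefSeq GRCh38.p14 by symbol.

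All 15 footprint libraries were fitted with 3 treatment groups in edgeR 4.0.16 (R 4.3.3): filterByExpr (minimum count 10, total 15), TMM, 2-sided quasi-likelihood F test, Benjamini-Hochberg over all genes, calls at an adjusted p under 0.05. Genes almost absent with vehicle and with LPS passed the filter only through their LPS+Dex libraries. ZBTB16, SPRY1, FPR1, C1QB and KDR were among these, so only a rise could bring them into the counts of their lists. The 12 mRNA libraries were fitted alike and separately. Scaling makes changes relative to the average gene. CPM and the fits were computed here, and the scripts were tested on simulated data. SE is the size of the log2 fold change before edgeR's shrinkage, divided by the root of F. The printed log2 fold changes are those after shrinkage, which can differ for genes with low counts.

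The labels number replicates without saying that equal numbers belong together. After removal of group means, all 5 pairs of LPS and LPS+Dex libraries of equal number had a correlation across genes above 0.1 (0.325 to 0.871), so the number was used as a block in a second fit. With vehicle included, all 15 pairs of equal number exceeded 0.1, but so did 35 of 60 pairs of unequal number (up to 0.525). Passing this limit therefore does not show that equal numbers belong together. Recomputed with number 4 removed, 1 of the 4 remaining LPS and LPS+Dex pairs of equal number exceeded 0.1 (-0.151 to 0.184). With vehicle included it was 4 of 12 pairs of equal number and 5 of 36 of unequal number.

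The gene lists (39 lists, 1213 genes, 1123 tested) and the genes named were chosen with earlier results of these data known. The naming rule took the 10 largest rises and falls among genes called with and without the block, with a mean of at least 10 CPM and no overlap between groups. It also took the 8 largest gains and losses in CPM, the strongest member each way of every list, 6 rises and 6 falls called only with the block, a panel of known targets and the genes farthest off in the libraries numbered 4. Other list members named are called examples, picked after their values were seen. Alternatives were the block, 2-group fits, leaving out libraries, RLE and upper quartile scaling, other filters, a robust fit, DESeq2 1.42.0 and limma 3.58.1 voom with quality weights.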

Additional observations from a re-analysis of the deposited data

Results flagged for a closer look

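Among the 25 genes given library by library, 27 of 50 groups of 5 had 1 library with a gap to the nearest other library of more than 0.71 of the group's whole range (Dixon's limit for 5 values), where chance flags about 1 in 20. In 25 of the 27 it was the library numbered 4. These genes were chosen with earlier results known and come from the same libraries, so their flags are not independent. In LPS library 4 the values lay above the other 4 for IL6 (51.3 CPM), PTGS2 (4130), LPL (2007), IL1B (62270), PER1 (49.2), CSF3 (120.0), IL1RN (4553), DUSP1 (187), SGK1 (887), TNF (9785) and CXCL8 (53690), and below them for CXCL10 (129). In LPS+Dex library 4 they lay above for SLAMF1 (305), THBS1 (8469), IL6 (7.53), PTGS2 (685), LPL (8112), IL1B (32750), GCLC (623), CSF3 (542), IL1RN (1019), DUSP1 (1627), TNF (5102) and CXCL8 (30380), and below for FKBP5 (1694).

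The 2 flags outside the libraries numbered 4 were FKBP5 (155 CPM) and EGLN1 (7.84 CPM), both in LPS library 5 and both above the other 4. These genes were strongly raised by dexamethasone; the part of LPS library 5 in their fold changes was limited, as FKBP5 gave between 4.40 and 4.81 and EGLN1 between 3.77 and 4.04 over the fits that left out 1 library each. Over the 120 named genes 127 of 240 groups were flagged, 120 of them for the library numbered 4. The naming rule took some of these genes because they lay farthest off in the libraries numbered 4. It took others because they passed only with the block, so a high count was partly built in.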

How the results depend on the processing

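The count of 2083 called genes became 3769 with the replicate block, 3780 with the block in the 10 libraries of the 2 groups alone, 3855 without the 3 libraries numbered 4, 4032 without them and with the block, and 4191 by limma voom with quality weights. Leaving out 1 library at a time gave 1748 to 2370. The other scalings, filters, DESeq2, the robust fit and the 2-group fit stayed within 1.5 times of 2083. The count of genes at least 2-fold changed, 790, was 603 to 1035 under every footprint setting run, and the mRNA count of 4123 was 4858 with its replicate block and stayed within 1.5 times under each mRNA setting run. Scaling moved the median of all genes by less than 0.1.

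Over the named genes, 2947 values kept direction and side of the threshold, 164 gained a call, 80 lost one and 26 changed sign. Sign changes were in genes that were not called: ANTXR1 was -0.01 and became 0.059 without the libraries numbered 4 (0.060 with the block too) and 0.10 by limma voom, and SIGLEC1, 0.16, became -0.11 by limma voom. With single libraries left out the log2 fold change ranged from -0.20 to 0.24 for ANTXR1, -1.61 to 1.82 for SIGLEC1, -1.46 to 1.67 for ITGAE, -1.92 to 0.14 for TNF, -2.19 to 1.14 for GDF15, -3.12 to 0.25 for EREG, -0.057 to 0.39 for CPNE2, -0.07 to 2.48 for MMP19, -0.42 to 1.56 for MERTK and -1.20 to 2.76 for MMP7. The cause was not tested. Of 89 named calls, 14 moved by more than 1.5-fold when 1 library was left out, 10 of them for LPS+Dex replicate 4. LPL, CTSC, IL1B, DUSP6, IL15, RIPK3, HMOX1, COX5B and H2BC4 lost their call without some single libraries. Depth set which genes could be tested: 12197 of 20453 passed the filter on low counts.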
